A study of Mus musculus with 8 samples.

Results

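The genes described here are those of the Nodal, Lefty and Cripto axis, as measured in mouse embryonic stem (ES) cells before and after treatment with retinoic acid (RA). The members were the 8 genes *Nodal*, *Lefty1*, *Lefty2*, *Cer1*, *Tdgf1*, *Foxh1*, *Pcsk6* and *Furin*, found as all non-control probes carrying one of these names in the scanner output. They were represented by 10 of the 55681 probes on the array and by 8 of its 36406 gene names. *Tdgf1* had 3 probes and each other gene had 1. All cells were E14Tg2A.4, a single established mouse ES cell line without a transgene or a deletion named in the labels. The untreated cells were compared with cells given 1 µM all-trans RA for 3 days (72 h), and the study's methods place the RA treatment in medium without leukemia inhibitory factor, so that RA and the medium cannot be told apart here. Total RNA from 4 samples of each condition, which the series calls biological replicates, was hybridized to 1-colour Agilent arrays. Each spot of such an array holds many copies of 1 oligonucleotide, and brighter spots stand for more of the matching transcript.

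Nodal is a secreted ligand of the TGF-beta family that signals through activin receptors and Smad2 and Smad3. Its precursor is cleaved by the proprotein convertases Furin and Pcsk6 (also called PACE4), and Cripto, the product of *Tdgf1*, is the coreceptor that Nodal needs at the cell surface. In the nucleus Foxh1 carries the activated Smads to DNA, and *Lefty1*, *Lefty2* and *Nodal* itself are well known targets. The Lefty proteins and Cerberus (*Cer1*) are secreted inhibitors that close the loop. In mouse ES cells the axis is active, and in the embryo it patterns the epiblast and the primitive streak.

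The arrays read these genes through 60-base probes. The first 30 bases of the probes of *Nodal*, the Lefty genes and *Tdgf1* are shown, since the largest changes rest on these oligonucleotides. Positions follow mm9, as the scanner output gives them, and no base is marked by capitals.
Nodal: ttattagattataaacgagccatttggttc
Lefty1: ctttcatgcaaatctgaagtgctcattata
Lefty2: aagggtgtacctgagtctttctggccattg
Tdgf1 probe a: tgatgctcacagtgaatccctaatgttacc
Tdgf1 probe b: gttattattaaatcccagtgtgcaactgga
Tdgf1 probe c: ctacacagaaaccctgtctcggggagaaaa
The *Nodal* probe (NM_013611) lies at chr10:60887790-60887849 on the plus strand. The *Lefty1* probe (NM_010094) lies at chr1:182868137-182868196 and the *Lefty2* probe (NM_177099) at chr1:182828893-182828952, both on the plus strand. The *Tdgf1* probes (NM_011562) lie on the minus strand at chr9:110843099-110843158, chr9:110842866-110842925 and chr9:110842722-110842781. Of these, probe c shared a run of 16 bases with 4 probes of other genes and with 27 of 32851 RefSeq promoter windows. The other 9 probes of the axis shared such a run with 0 probes of other genes and with at most 2 windows. The RefSeq gene table also lists the pseudogenes *Tdgf1-ps1* and *Tdgf1-ps2*, and their part in the *Tdgf1* signal was not tested.

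The arrays had between 33629 and 37175 of 59305 non-control spots well above background, and 0 saturated spots. Each of the 2 slides carried 2 untreated and 2 RA-treated arrays. All 12 pluripotency markers of a list were lower after RA, led by *Fgf4* and *Tdh* with log2 fold changes of -6.08 and -6.05, and their summed linear signal was 619 to 864 on untreated and 57.7 to 141 on RA-treated arrays. Of 10 RA response genes, 9 were higher, among them *Rarb* (7.21) and *Hoxb1* (at least 29.8-fold, limma adjusted p = 1.08e-05). Of 12 genes of primitive and visceral endoderm 8 were higher and 1 lower, among them *Ttr* (at least 43.1-fold higher, limma adjusted p = 8.39e-06) and *Afp* (6.18, well above background on 1 untreated array), with a summed signal of 3.12 to 5.07 on untreated and 14.4 to 27.4 on RA-treated arrays. Of 8 fibroblast genes 7 were higher, led by *Dcn* (8.07) and *Col3a1* (7.05), with a summed signal of 1.16 to 2.02 and 31.7 to 49.7. Of 7 neural genes 2 were higher and 1 lower, among them *Dcx* (at least 6.68-fold higher, limma adjusted p = 8.35e-06) and *Tubb3* (-2.22). Of 8 streak and mesoderm genes 1 was higher and 3 lower, among them *Hand1* (4.35) and *Mesp1* (at least 1.85-fold lower, limma adjusted p = 3.35e-06). *Mixl1*, also among the 3 lower, was not well above background on any array. These counts are to be read against the whole array. With 1 probe for each gene name 13.9% were higher and 22.1% lower. Among probes well above background on all 4 arrays of a condition the shares were 20.1% and 29.6%. A fold given as at least is a bound, for a probe well above background on 0 arrays of 1 condition, in which each array of the dim condition was set to the lowest signal that counted there as well above background, or to the probe's own signal where that was higher. The part that these cell types had in the changes of the axis was not tested, and in bulk RNA fewer cells of a type and less RNA per cell cannot be told apart.

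Most genes of the axis fell after RA. The ligand *Nodal*, the inhibitors *Lefty1* and *Lefty2*, the coreceptor *Tdgf1*, the nuclear partner *Foxh1* and the convertase *Pcsk6* were lower, the convertase *Furin* was higher, and the inhibitor *Cer1* did not pass the test. Signals are given as log2 of the processed intensity relative to the 75th percentile of the array, and a gene was called at an adjusted p under 0.05 from limma (Benjamini-Hochberg over all probes) together with a change of more than 1.5-fold. By this rule 6 of the 8 genes were lower and 1 was higher, while 34.6% of all probes on the array were called, 21.6% lower and 12.9% higher. With 1 probe for each gene name on the array, as for the 8 genes, 36.1% were called, 22.1% lower and 13.9% higher. In the subset of 32379 probes that every array of at least 1 condition showed well above background, 49.7% were called, 29.6% lower and 20.1% higher, and 7 of the 8 genes were well above background in this sense. The median log2 fold change over the 8 genes was -3.51, against -0.28 over all probes. In 7 genes the conditions did not overlap, which was also so for 37.7% of all probes. The lean of all called probes to lower depends on the scaling. There were 12044 lower and 7196 higher, but 8704 and 8152 with quantile normalization, under which the axis still had 6 genes lower and 1 higher.

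**Figure D1:**
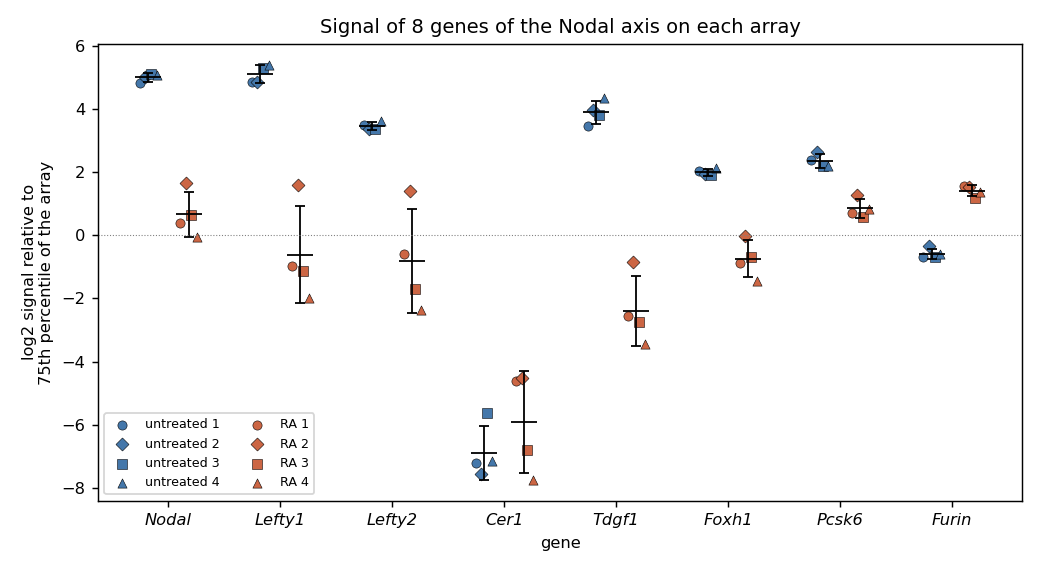
Log2 signal relative to the 75th percentile of the array (vertical axis) for each of the 8 genes (horizontal axis) on the 4 untreated (blue) and 4 RA-treated (orange) arrays, with marker shapes for the replicate number and black bars for the mean ± SD of a condition; levels of different probes are not comparable. The conditions do not overlap in 7 genes, they overlap at *Cer1*, and RA replicate 2 (diamond) is the highest RA-treated array in 7 genes.

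*Nodal*, the ligand, had log2 signals of 4.81, 4.998, 5.12 and 5.06 in untreated replicates 1 to 4 and of 0.39, 1.65, 0.64 and -0.04 in RA replicates 1 to 4. The untreated arrays lay close together, every RA-treated array lay far below them, and RA replicate 2 was the highest of these. The mean went from 4.997 ± 0.13 to 0.66 ± 0.72 (SD, n = 4 each, as for all means here). The log2 fold change was -4.34 (SE 0.32, 95% interval -5.08 to -3.60, limma adjusted p = 2.00e-05), a 20.2-fold lower signal. The probe remained well above background on all 8 arrays, so that a reduced *Nodal* signal was still measured after RA.

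*Lefty1* and *Lefty2* are neighbouring genes that encode closely related feedback inhibitors of Nodal. *Lefty1* had log2 signals of 4.85, 4.86, 5.28 and 5.40 without treatment and of -0.97, 1.59, -1.12 and -1.97 after RA. *Lefty2* had 3.48, 3.37, 3.38 and 3.62 without treatment and -0.59, 1.41, -1.69 and -2.36 after RA. In both genes the untreated arrays were tight, the RA-treated arrays spread over a wide range, and RA replicate 2 stood above the other RA-treated arrays. *Lefty1* fell from 5.10 ± 0.28 to -0.62 ± 1.54, a log2 fold change of -5.71 (SE 0.66, 95% interval -7.21 to -4.22, limma adjusted p = 0.000188) or 52.5-fold. *Lefty2* fell from 3.46 ± 0.12 to -0.81 ± 1.65, a log2 fold change of -4.27 (SE 0.70, 95% interval -5.85 to -2.69, limma adjusted p = 0.00131) or 19.3-fold. Without RA replicate 2 the changes were larger, at -6.45 for *Lefty1* and -5.01 for *Lefty2*.

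The probes of the Lefty genes differed in the size of their fall. The difference *Lefty1* minus *Lefty2* within an array was 1.38, 1.49, 1.90 and 1.77 on the untreated arrays and -0.38, 0.18, 0.57 and 0.39 on the RA-treated arrays. Every RA-treated array lay below every untreated array. The log2 fold change on the *Lefty1* probe was further below 0 than that on the *Lefty2* probe (difference -1.45, two-sided exact permutation test over 70 assignments, p = 0.0286, the smallest p that 4 against 4 arrays can give). This was 1 of 2 such comparisons, and the p is not adjusted over both. Exchanging conditions only within the 4 same-numbered pairs, the exact permutation p was 0.125 for each comparison, the smallest that 16 assignments allow, with a lower difference after RA in 4 of 4 pairs. The size of the offset within a condition reflects the probes as well as the transcripts, and only its shift between conditions is compared. Each gene has 1 probe, and since the 3 probes of *Tdgf1* shifted by -6.30, -6.29 and -3.11, a difference between probes and one between transcripts cannot be told apart.

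**Figure D2:**
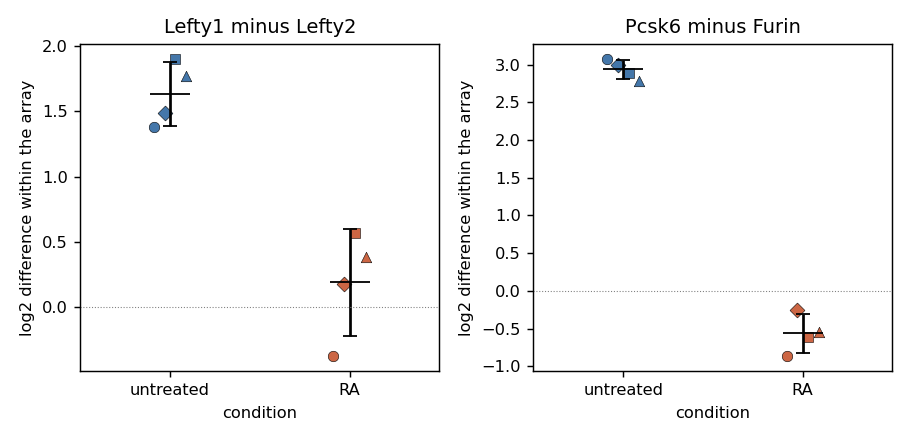
Log2 difference within each array (vertical axis) between *Lefty1* and *Lefty2* (left) and between *Pcsk6* and *Furin* (right), by condition (horizontal axis), with 1 point per array, marker shapes for the replicate number and black bars for the mean ± SD. In both panels the 4 RA-treated arrays (orange) lie below the 4 untreated arrays (blue), from 1.38 to 1.90 down to -0.38 to 0.57 for the Lefty genes and from 2.78 to 3.08 down to -0.86 to -0.25 for the convertases.

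*Cer1* encodes Cerberus, a secreted antagonist made by the anterior visceral endoderm. Its probe (NM_009887, chr4:82527655-82527714, minus strand) gave log2 signals of -7.21, -7.55, -5.62 and -7.15 without treatment and of -4.60, -4.52, -6.81 and -7.75 after RA. It was well above background on 0 untreated arrays and on 2 RA-treated arrays, replicates 1 and 2 being the bright ones, and the conditions overlapped. The log2 difference was 0.96 (SE 0.77, 95% interval -0.78 to 2.71, limma adjusted p = 0.320), and no fold is given because most of these signals were not well above background. With another background correction (normexp) the difference was -0.01, so that no direction can be given for *Cer1*.

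*Tdgf1* fell on all of its probes, and on probe a its log2 fold change was the furthest below 0 of the axis. Its probe a, the brightest over the 8 arrays, gave log2 signals of 3.44, 3.98, 3.80 and 4.34 without treatment and of -2.56, -0.85, -2.76 and -3.45 after RA. All untreated arrays were far above all RA-treated ones, of which replicate 2 was again the highest. The mean fell from 3.89 ± 0.37 to -2.41 ± 1.10, a log2 fold change of -6.30 (SE 0.50, 95% interval -7.43 to -5.16, limma adjusted p = 2.59e-05) or 78.6-fold. It was -5.57 with normexp and quantile normalization and -5.54 with the authors' values. Among the log2 fold changes of all probes this lay at percentile 0.0826.

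The other *Tdgf1* probes fell as well, one of them by less. Probe b gave 1.85, 2.53, 1.91 and 2.69 without treatment and -4.03, -2.29, -4.85 and -5.02 after RA, a log2 fold change of -6.29 (SE 0.56, limma adjusted p = 4.66e-05) or 78.4-fold. Probe c gave 2.05, 1.26, 1.04 and 1.02 without treatment and -1.48, -1.75, -2.44 and -1.38 after RA, a log2 fold change of -3.11 (SE 0.31, limma adjusted p = 7.71e-05) or 8.61-fold. In both the conditions did not overlap. Probe c is the one that shares a run of bases with probes of other genes, and on it RA replicate 2 was not the highest RA-treated array. With the mean of the 3 probes the *Tdgf1* log2 fold change was -5.23, less far below 0 than the -5.71 of *Lefty1*.

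*Foxh1* encodes the forkhead factor that recruits Smad2 and Smad3 complexes to Nodal targets. Its probe (NM_007989, chr15:76498767-76498826, minus strand) gave log2 signals of 2.04, 1.93, 1.89 and 2.14 without treatment and of -0.87, -0.01, -0.69 and -1.43 after RA. The conditions did not overlap, and RA replicate 2 was the closest of the treated arrays to the untreated ones. The mean fell from 2.00 ± 0.11 to -0.75 ± 0.59, a log2 fold change of -2.75 (SE 0.27, 95% interval -3.37 to -2.13, limma adjusted p = 8.32e-05) or 6.72-fold.

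The convertases *Pcsk6* and *Furin* moved in opposite directions. *Pcsk6* (NM_011048, chr7:73195141-73195200, plus strand) gave log2 signals of 2.38, 2.65, 2.19 and 2.20 without treatment and of 0.71, 1.27, 0.58 and 0.83 after RA. *Furin* (NM_011046, chr7:87534082-87534141, minus strand) gave -0.69, -0.35, -0.70 and -0.59 without treatment and 1.57, 1.52, 1.19 and 1.37 after RA. All RA-treated arrays were below all untreated arrays for *Pcsk6* and above them for *Furin*, and these genes had the tightest RA-treated arrays of the axis. *Pcsk6* fell from 2.35 ± 0.22 to 0.85 ± 0.30 (log2 fold change -1.50, SE 0.19, 95% interval -1.94 to -1.07, limma adjusted p = 0.000335), 2.84-fold. *Furin* rose from -0.58 ± 0.16 to 1.41 ± 0.17 (log2 fold change 2.00, SE 0.15, 95% interval 1.65 to 2.35, limma adjusted p = 2.18e-05), 4.00-fold.

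The difference *Pcsk6* minus *Furin* within an array was 3.08, 3.00, 2.89 and 2.78 without treatment and -0.86, -0.25, -0.61 and -0.54 after RA. It shifted by -3.50 (two-sided exact permutation test, p = 0.0286, the smallest p possible). Since the conditions did not overlap in either gene and the genes moved in opposite directions, this p was fixed in advance. The test therefore adds nothing to the calls of these genes. A difference within an array is not affected by a shift of the whole array.

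**Figure D3:**
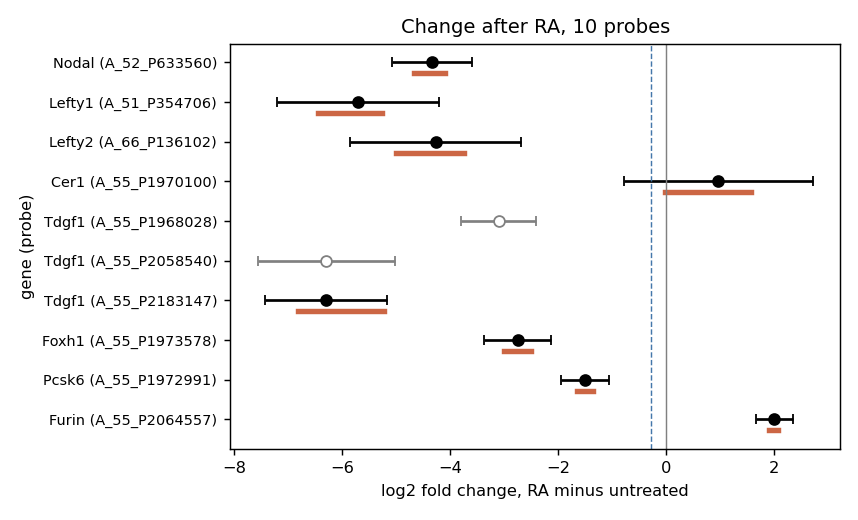
Log2 fold change of RA-treated over untreated cells (horizontal axis) for the 10 probes (vertical axis), with limma's 95% interval as the black bar for the probe that stands for its gene and in grey for the other *Tdgf1* probes; the orange bar is the range over the alternative settings, and the dashed line is the median of all probes (-0.28). Intervals lie below 0 for 8 probes, above 0 for *Furin* and across 0 for *Cer1*.

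The changes were seen on both slides. Within slide 1 and slide 2, comparing 2 with 2 arrays, the log2 fold change was -4.79 and -3.88 for *Nodal*, -6.54 and -4.89 for *Lefty1*, and -4.90 and -3.64 for *Lefty2*. It was -6.63 and -5.96 for *Tdgf1*, -3.12 and -2.38 for *Foxh1*, -1.52 and -1.49 for *Pcsk6*, and 2.17 and 1.83 for *Furin*. The size was larger on slide 1 for these 7 genes, with RA replicate 2 on slide 2. *Cer1* differed by 0.24 and 1.69.

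RA replicate 2 was the highest of the RA-treated arrays for every gene of the axis except *Furin*. Its log2 signal exceeded the mean of the other RA-treated arrays by 2.95 for *Lefty1*, 2.96 for *Lefty2*, 2.07 for *Tdgf1*, 1.32 for *Nodal*, 0.98 for *Foxh1* and 0.56 for *Pcsk6*. For *Furin* it exceeded that mean by 0.14. No excess is given for *Cer1*, which was not well above background on RA replicates 3 and 4 and had -4.60 and -4.52 on replicates 1 and 2. Over the 32379 probes well above background this array was the highest in 33.4%, and its median excess was 0.05. Of the 12 pluripotency markers 10 were highest on it, with a median excess of 1.67, and of the 10 RA response genes 0 were, with a median of -0.82. Whether the degree of differentiation of this culture moved the axis was not tested. Without this array all 7 calls were kept.

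**Figure D4:**
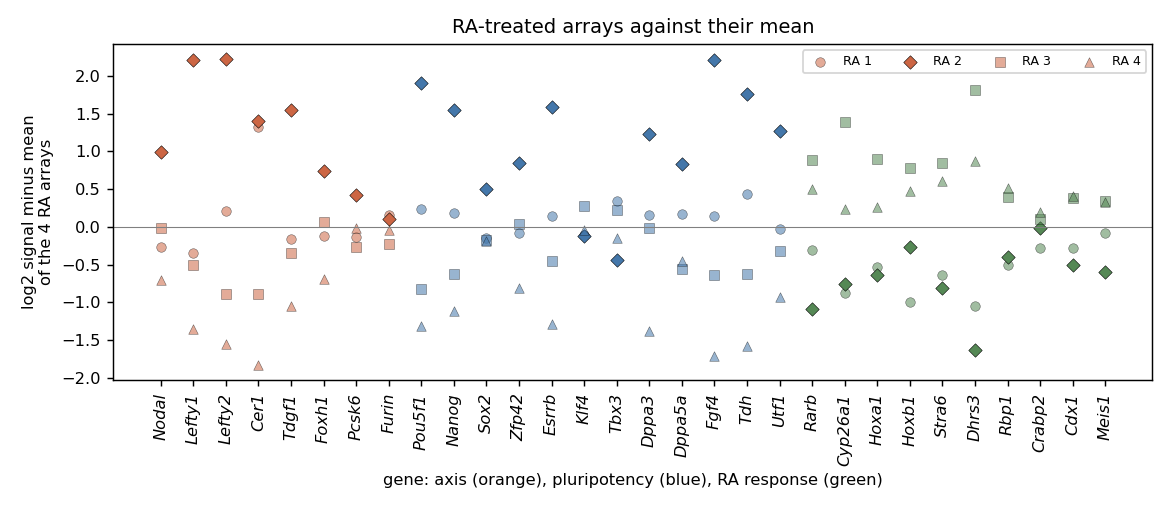
Log2 signal of each RA-treated array minus the mean of the 4 RA-treated arrays (vertical axis) for the axis (orange), pluripotency markers (blue) and RA response genes (green), with 1 point per array and RA replicate 2 as a solid diamond. Replicate 2 is on top for 7 of 8 genes of the axis and 10 of 12 pluripotency markers, and on top for 0 of 10 RA response genes.

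Promoters were read for the members listed in the RefSeq promoter table (GRCm38.p6, 250 bases before to 50 after a start), which held 6 windows for 5 of them, *Nodal*, *Tdgf1*, *Cer1*, *Pcsk6* and *Furin* (2 windows). The 250 bases before the start of the ligand and of the coreceptor, which fell together, are printed, with capitals for the motif GGGCGTGG. The *Nodal* stretch is chr10:61417722-61417971 on the plus strand and the *Tdgf1* stretch chr9:110946159-110946408 on the minus strand.
Nodal promoter: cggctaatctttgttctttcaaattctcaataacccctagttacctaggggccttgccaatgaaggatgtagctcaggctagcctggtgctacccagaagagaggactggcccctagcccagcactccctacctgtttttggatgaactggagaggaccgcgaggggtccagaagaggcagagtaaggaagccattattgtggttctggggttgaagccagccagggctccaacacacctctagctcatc
Tdgf1 promoter: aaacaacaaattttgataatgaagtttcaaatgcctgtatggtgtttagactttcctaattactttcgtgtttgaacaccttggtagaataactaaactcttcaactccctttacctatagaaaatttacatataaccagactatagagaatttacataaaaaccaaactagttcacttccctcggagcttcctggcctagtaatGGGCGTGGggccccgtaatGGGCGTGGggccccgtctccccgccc
The *Tdgf1* window held this motif 2 times, at bases 206 and 225 of the window, within a stretch of bases that is itself repeated. Of 32851 RefSeq windows 5.33% held at least 1 copy on either strand. The motif was chosen after the window had been read. The *Pcsk6* window and the *Furin* window nearer the gene were rich in CpG, with 52 and 51 CpG and 81.7% and 82.3% G or C. The *Nodal*, *Tdgf1* and *Cer1* windows had 5, 7 and 6 CpG and 54.0%, 41.7% and 51.7% G or C, and the upstream *Furin* window had 7 CpG and 51.3%. That window also held TATAAA, as did 13.6% of all windows. On either strand, 0 of the 6 windows held the Foxh1 motifs AATCCACA (0.855% of all windows) or AATACACA (0.980%), the Smad palindrome GTCTAGAC (0.213%), the octamer ATGCAAAT (1.74%), or direct repeats of AGGTCA spaced by 5 bases (0.00913%) or by 2 bases (0.00913%).

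The other genes of the pathway were taken from lists by role, 42 genes in all. Of these 10 were higher, 13 were lower and 19 did not pass the test, with a median log2 fold change of 0.00 against -0.28 over all probes. With 1 probe for each gene name, 13.9% of all names were higher and 22.1% lower, and in the subset of detected probes 20.1% and 29.6%, against which the counts by role that follow are to be read. For the 8 genes of the axis the median was -3.51, and the difference between these groups of genes was not tested. With quantile normalization 10 of the 42 genes were higher and 9 lower, and the median of all probes was -0.0026.

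Among 4 further ligands 2 were lower and 1 was higher. *Gdf3*, a Nodal-related ligand that also uses Cripto, had a log2 fold change of -5.73 (SE 0.45, limma adjusted p = 2.41e-05), and its other probe gave -5.05. *Inhbb*, a subunit of activin B, had -5.42 (SE 0.29, limma adjusted p = 4.52e-06), or -4.41 with the normexp background and -4.25 with the authors' values. *Inhba*, the subunit of activin A, rose by 1.68 (SE 0.18, limma adjusted p = 0.000133), but was well above background on 2 of the untreated arrays and rose by 0.56 with the normexp background, which ended its call. *Gdf1*, whose protein pairs with Nodal, did not pass the test at -0.64 on its brighter probe, while its other probe, well above background on 4 untreated and 3 RA-treated arrays, was lower with a log2 fold change of -0.59 (limma adjusted p = 0.0115).

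Of 5 receptor and coreceptor genes 1 was lower and 0 were higher. *Acvr2b* and *Acvr2a*, the type II receptors, had log2 fold changes of 0.21 and 0.14, and the type I receptor *Acvr1b* had -0.30 on its brighter probe and 0.14 on the other. These 3 receptor genes did not pass the test, and *Acvr1c*, another type I receptor, was not well above background on any array. *Cfc1* (Cryptic), the relative of Cripto, was lower with a log2 fold change of -1.29 (SE 0.36, limma adjusted p = 0.0208). This call was lost without untreated replicate 4 (-1.13, adjusted p = 0.0564), RA replicate 3 (-1.07, adjusted p = 0.0520) or RA replicate 4 (-1.08, adjusted p = 0.0545).

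Of 7 Smads and their partners 4 were higher and 0 were lower. *Smad3* rose by 2.67 (SE 0.15, limma adjusted p = 6.23e-06), or by 1.74 with the mean of its probes, and *Smad2* by 1.24 (SE 0.19, limma adjusted p = 0.000855), the signal transducers of the receptors. *Smad4*, their common partner, rose by 0.81 (SE 0.14, limma adjusted p = 0.00178), and *Wwtr1* (TAZ), which holds Smads in the nucleus, by 1.61 (SE 0.18, limma adjusted p = 0.000165).

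Of 12 negative regulators 2 were higher and 6 were lower. *Fst* (follistatin), which traps activins, rose by 3.00 (SE 0.33, limma adjusted p = 0.000155), and the ubiquitin ligase gene *Smurf2* by 0.79. *Smurf1* had a log2 fold change of -1.01 and *Tgif1*, a repressor of Smad targets, -0.88. The remaining 4 that were lower were *Ncln* (-0.77) and *Nomo1* (-0.63), whose products form a complex that restrains Nodal signalling, *Tgif2* (-0.61) and *Skil* (-0.61). *Tgif2*, *Skil* and *Nomo1* were close to the 1.5-fold limit, and their calls were lost in 10, 8 and 3 of 16 alternative settings, the 2-fold limit not counted.

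Of 9 genes that Nodal is known to drive in mesendoderm 2 were higher and 2 were lower. *Foxa2*, an endoderm and midline factor, rose by 5.03 (SE 0.29, limma adjusted p = 6.42e-06), whereas *Gsc* (goosecoid) had -1.95 (SE 0.29, limma adjusted p = 0.000759), or -1.11 with the normexp background and -0.93 with the authors' values. The other gene called lower, *Mixl1*, was not well above background on any array, so that no fold is given, and its call was lost in 10 of 15 alternative settings. *Lhx1* did not pass the test on its brighter probe (0.17), while its other probe, well above background on 0 untreated and 3 RA-treated arrays, was higher by at least 2.38-fold (limma adjusted p = 0.00594), and the mean of both gave 1.43 (limma adjusted p = 0.0120). *Eomes*, a streak factor, had log2 signals of -1.94, -1.73, -2.40 and -1.52 without treatment and of -0.75, 0.33, -2.31 and -3.16 after RA. *Fgf8* had -3.25, -3.38, -3.74 and -2.94 without treatment and -1.30, 0.57, -3.33 and -3.15 after RA. Neither passed the test, and in both RA replicates 1 and 2 were above RA replicates 3 and 4, as in *Lefty1*, *Lefty2*, *Cer1*, *Tdgf1* and *Furin*, an order found in 27.2% of the probes well above background. The same order was found in 9 of 12 pluripotency markers, 6 of 12 endoderm markers, 5 of 8 streak and mesoderm markers, 4 of 8 fibroblast markers, 1 of 7 neural markers and 0 of 10 RA response genes, and the part of these cell types in it was not tested. The 5 streak and mesoderm markers include *Eomes* itself. They also include *Mixl1* and *Mesp1*, which were not well above background on any RA-treated array, so that their order cannot be read. *Eomes* and *Fgf8* were singled out after their values had been seen.

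Of 5 other convertases 1 was higher and 2 were lower. *Pcsk5* rose by 4.04 (SE 0.16, limma adjusted p = 1.80e-06), although it was well above background on 2 of the untreated arrays, and by 2.22 with the normexp background or 1.79 with the mean of its probes. *Pcsk1*, which processes hormone precursors, had a log2 fold change of -2.90 (SE 0.25, limma adjusted p = 4.01e-05), or -1.79 with the normexp background. *Pcsk2* had -0.73 (SE 0.24, limma adjusted p = 0.0418), a call that was lost in 14 of 16 alternative settings, the 2-fold limit not counted.

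**Figure D5:**
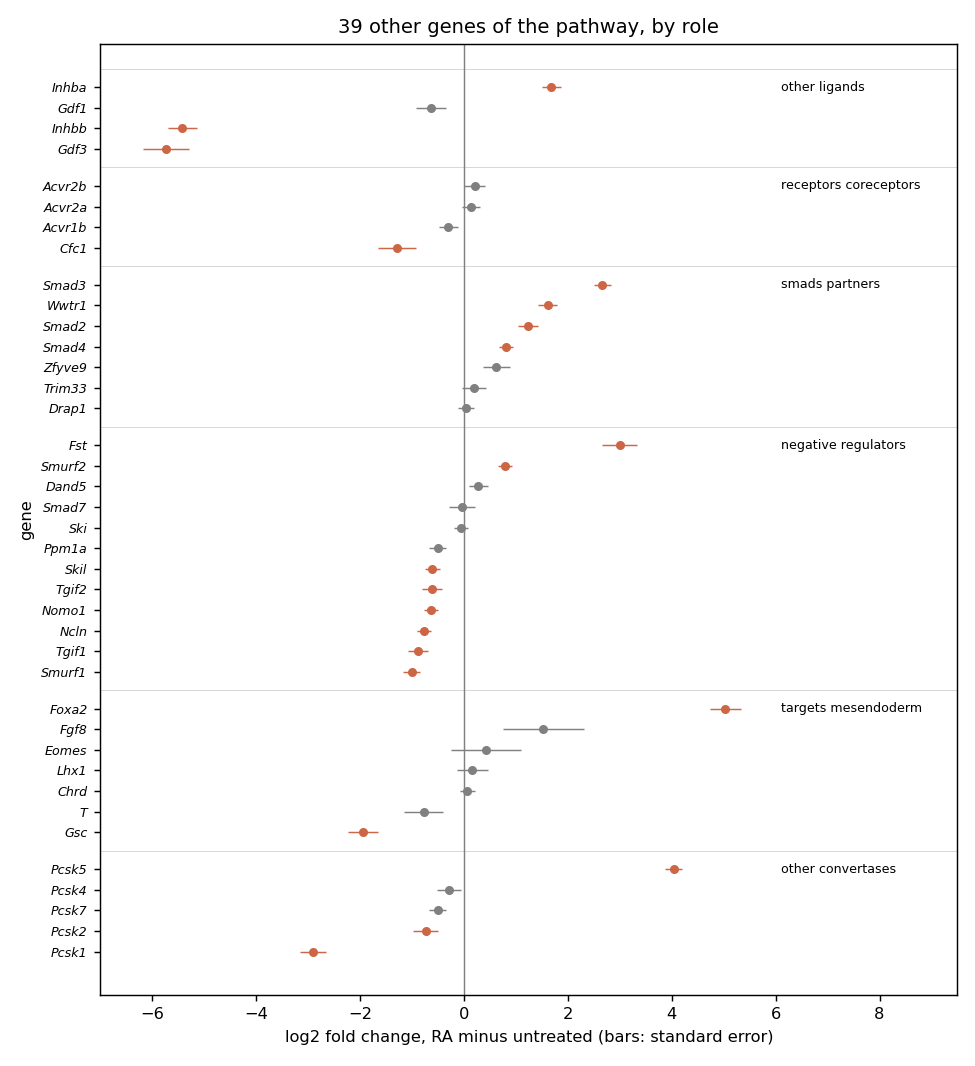
Log2 fold change of RA-treated over untreated cells (horizontal axis) with limma's standard error as the bar, for 39 of the 42 other genes of the pathway (vertical axis) grouped by role, without *Acvr1c* and *Mixl1*, which were not well above background on any array, in orange where called and in grey where not. Called genes lie on both sides of 0, 9 to the right and 12 to the left, and the receptor genes *Acvr1b*, *Acvr2a* and *Acvr2b* lie near 0 in grey.

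As a description, the genes whose signal over the 8 arrays most resembled each member were ranked by Pearson correlation among 16470 named probes well above background on every array. These arrays share the 2 conditions, so that any gene with a large change can rank high. *Nodal* was followed most closely by *Slc34a3* (0.999), *Gdf3* (0.999) and *Klf2* (0.998), and *Tdgf1* by *Ckb*, *Gdf3* and *Mybpc2* (each 0.998). *Foxh1* was followed by *Fxyd5* (0.999), *Klf2* (0.999) and *Morc1* (0.998). For *Lefty1* the order was *Gtf2a1l* (0.996), *Slc5a11* (0.994) and *1700001P01Rik* (0.994), and for *Lefty2* it was *Spry2* (0.995), *Pdpr* (0.994) and *Crlf3* (0.991). *Pcsk6* was followed by *Pnma2* (0.995), *Asxl2* (0.992) and *Rab27a* (0.992), and *Furin* by *Setd7* (0.999), *Slc22a23* (0.999) and *Senp5* (0.997).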

How the data were processed

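RNA of 8 samples of E14 ES cells, 4 untreated and 4 treated with RA, was measured on Agilent arrays, and groups and replicate numbers were taken from the labels. The authors deposited the scanner output of Feature Extraction (version 10.7.3.1), in which the intensity of each spot is background-corrected but not normalized between arrays, with flags of 0 or 1 that mark outlying, saturated and clearly detected spots. A table of processed log2 values of the same arrays was also deposited. These had the same distribution on every array and their processing was not given in the sources used here.

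In R (version 4.3.3) the log2 intensity was taken relative to the 75th percentile of 59305 non-control spots. The 3671 control spots and 124 to 145 outlier spots per array were left out, with 0 of them at the axis, no pseudocount or filter was applied, and spots of a probe were averaged. The probe with the greatest mean signal on the 8 arrays stands for its gene. RA-treated and untreated arrays were fitted in limma (version 3.58.1; lmFit, then eBayes) with Benjamini-Hochberg adjustment over 55681 probes, at the FDR of 0.05 and fold of 1.5 that the study states. Differences within an array were tested by exact permutation. The number of arrays limits the precision, and 56.7% to 62.7% of spots were well above background. The members and the gene lists were chosen with earlier results of these data known.

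Named were all members and their probes, up to 4 called genes with the largest change per pathway list with genes whose probes disagree, the 2 largest changes of each marker list, and the 3 genes most like each member. *Eomes*, *Fgf8*, *Gdf1*, *Acvr1c*, *Acvr2a* and *Acvr2b*, and the remaining called negative regulators, were chosen outside this rule, with their values in view. One gene that the rule names is counted but not reported here. On simulated data for this comparison, 156 of 200 probes changed by a log2 value of 2 were recovered among 55640 probes, and 11 unchanged probes were called. The simulated noise was independent between arrays, and far fewer probes were changed than the 34.6% called in the data. These counts therefore describe the simulated setting only.

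Over 27493 probes well above background on all arrays, same-numbered arrays deviated together from the mean of their condition (correlations 0.186, 0.189, 0.104 and 0.151 for numbers 1 to 4, the highest between different numbers 0.142), and the numbers were therefore taken as pairs in a blocked alternative, while the main limma fit and the main permutation test use no block. This comes from the data and the label numbers. The arrays of number 1 shared a slide, as did those of number 2, while those of numbers 3 and 4 did not. For numbers 1 and 2 a shared number and a shared slide cannot be told apart. Alternatives were quantile normalization, the normexp background (offset 50) with either scaling, the authors' log2 values, a filter on dim probes, the replicate number or the slide as a block, the mean of a gene's probes, a 2-fold limit, and leaving out each array.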

Additional observations from a re-analysis of the deposited data

Results flagged for a closer look

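Within a condition, 58 groups of 4 arrays were examined for a sample far from the others, and 2 stood out, where chance alone gives about 1 in 20 groups. None was at a gene of the axis. For *Smad2* untreated replicate 3 had a log2 signal of 1.08 where the remaining untreated arrays lay between 0.40 and 0.48. For *Foxa2* untreated replicate 1 had 0.00905 where the remaining ones lay between -1.04 and -0.91.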

How the results depend on the processing

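The calls of *Nodal*, *Lefty1*, *Lefty2*, *Tdgf1*, *Foxh1*, *Pcsk6* and *Furin* were kept under all 16 alternative settings, with log2 fold changes of -4.67 to -4.10, -6.45 to -5.26, -5.01 to -3.75, -6.81 to -5.23, -3.00 to -2.51, -1.64 to -1.36 and 1.90 to 2.08. The shift of *Lefty1* minus *Lefty2* ranged from -1.57 to -1.26 and that of *Pcsk6* minus *Furin* from -3.61 to -3.27. With exchange within same-numbered pairs, a replicate block chosen after seeing the data, the shifts were -1.45 and -3.50 with an exact permutation p of 0.125 each, the smallest possible, so that this design cannot pass 0.05. *Cer1* ranged from -0.015, with the normexp background, to 1.57 and passed under no setting. It was not given with the filter on dim probes.

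The number of other pathway genes called lower, 13, was 9 with quantile normalization, 8 with normexp and quantile normalization, 8 with the authors' values and 7 at the 2-fold limit, and 9 to 13 on leaving out an array. The number higher was 10 to 11 on leaving out an array and 10 with quantile normalization. With the replicate number as a block 11 pathway genes were lower and 10 higher, the calls of *Tgif2* and *Pcsk2* being lost, 19384 probes were called against 19240, and no limma call of the axis changed. The called probes were 7196 higher and 12044 lower, or 37.4% higher, against 48.4% with quantile normalization, 48.8% with normexp and quantile normalization and 48.8% with the authors' values, and the median of all probes was -0.28, -0.0026, -0.01 and -0.01. The causes were not tested.

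Pathway genes that did not pass the test changed sign as follows, with the range on leaving out 1 array where that changed it. *Ski* (-0.05) was 0.054 with quantile normalization, 0.056 with normexp and quantile normalization and 0.06 with the authors' values, and -0.11 to 0.016, above 0 without RA replicate 2. *Acvr1c* (0.09) was -0.024 with normexp, -0.10 with the mean of its probes, and -0.10 to 0.22, below 0 without RA replicate 4. *Lhx1* (0.17) passed the test with the mean of its probes (1.43), was -0.094 with normexp, and -0.072 to 0.37, below 0 without untreated replicate 4. *Chrd* (0.07) was -0.047 with normexp. *Smad7* (-0.04) was -0.19 to 0.14, above 0 without untreated replicate 1 (0.12), RA replicate 2 (0.0026) or RA replicate 3 (0.14). *Drap1* (0.04) was -0.040 to 0.14 and *Trim33* (0.19) -0.032 to 0.34, both below 0 without untreated replicate 3. *Eomes* (0.42) was -0.18 to 0.99, below 0 without RA replicate 2.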
